A study of Homo sapiens with 18 samples.

Results

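The 10 genes described here are a chosen list of integrin subunits of matrix adhesion. They are the alpha subunits ITGAV, ITGA5, ITGA2, ITGA3 and ITGA6 and the beta subunits ITGB1, ITGB3, ITGB5, ITGB8 and ITGB4. Other integrin chains were expressed too, and adhesion itself was not measured. They were taken by gene symbol from a count matrix of 62754 genes and followed through all 6 conditions of the series. All 10 passed the filter on low counts and were tested among 15167 genes. In cells with ELMO1 knocked down, all 10 transcripts were higher than in mock-transfected cells at both times. Of all tested genes, 27.9% were higher at 0 h and 21.6% at 24 h. At 0 h the differences of ITGB5 and ITGB4 did not pass without some single libraries. Of the 10, 6 were also higher than in cells given a non-targeting siRNA at both times. Of all genes, 8.25% were higher in all 4 comparisons. ITGB8 had the largest fold change of the 10 in each of these 4 comparisons. Between 0 h and 24 h of poly(I:C) in mock-transfected cells 7 of the 10 fell and ITGA2 rose (all genes: 29.6% lower and 30.7% higher). The study itself had named ITGB8 among the transcripts higher after the knockdown on the same libraries, so its direction here is not independent evidence.

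An integrin is a pair of 1 alpha and 1 beta chain that spans the cell membrane, binds matrix outside the cell and couples to actin or keratin filaments inside it through adaptor proteins. The partner decides the ligand: the αv chain pairs with β1, β3, β5 or β8 and reads RGD motifs in vitronectin, fibronectin and the latent form of TGF-β, while β1 pairs with α5 to bind fibronectin, with α2 to bind collagen and with α3 or α6 to bind laminin. The β4 chain pairs with α6 alone and anchors epithelial cells to laminin through keratin. Endothelial cells use α5β1 and αvβ3 during vessel growth, and αvβ8 is known for freeing active TGF-β from its latent complex. ELMO1 is a scaffold that works with DOCK proteins to activate the GTPase RAC1.

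The cells were EA.hy926, a permanent endothelial line obtained by fusing human umbilical vein endothelial cells with the lung epithelial line A549, so the integrins of an epithelial parent may be present. Mock cells received Lipofectamine alone. The siNT cells were transfected with a non-targeting siRNA and the siELMO1 cells with a pool of siRNAs against ELMO1, each at 10 nM. RNA was taken 48 h after transfection, called 0 h, and again 24 h later in cells exposed to poly(I:C), a synthetic double-stranded RNA that engages TLR3, at 1 μg/ml. Cells of all 6 conditions had been kept in low serum overnight. No condition held cells at 24 h without poly(I:C), so an effect of poly(I:C) and one of 24 h more in culture cannot be told apart. Each condition had 3 libraries of bulk RNA, 18 in all. In bulk RNA fewer cells of a type and less RNA per cell cannot be told apart. The study described widespread cell death in siNT cultures after 24 h of poly(I:C), with much less in Mock and in siELMO1. It also described a cell cycle arrest in siELMO1 cells. The part of either in the integrin results, among them the comparisons with siNT at 24 h, was not tested.

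Library totals ran from 40374756 to 73850946 counts. ELMO1 was at 3.04, 2.99 and 3.03 counts per 1000000 (CPM, scaled by TMM factors) in the Mock libraries at 0 h, 2.85, 2.66 and 3.32 in siNT and 0.299, 0.301 and 0.419 in siELMO1. At 24 h it was at 1.52, 2.98 and 2.45 in Mock, 3.38, 2.98 and 3.59 in siNT and 0.288, 0.155 and 0.36 in siELMO1, so every siELMO1 library lay below every control library. Of 10 endothelial markers 8 reached 1 CPM in some library, with CLDN5 and EMCN near 0. Their summed level was 1637 to 1729.9 CPM in siELMO1 against 1096 to 1192 in Mock and 1123 to 1204 in siNT at 0 h, and 1607 to 1953 against 949 to 1168 and 1180.3 to 1321 at 24 h. Not every marker followed the sum. At 0 h CDH5 was at 761 to 787 CPM in siELMO1 against 359 to 388 in Mock and 426 to 459 in siNT. At the same time PECAM1 was lower in siELMO1 (209 to 253) than in siNT (310 to 328), and TEK lower in siELMO1 (99.0 to 108) than in Mock (111 to 117). Of 10 epithelial markers 4 reached 1 CPM, KRT7, KRT8 and KRT18 among them, while CDH1, GRHL2 and SFTPC were at 0. Their sum was 2065 to 2300.2 CPM in siELMO1 against 1608 to 1631 in Mock and 1913 to 1939.7 in siNT at 0 h, and 1057 to 1261 against 817 to 842 and 1007 to 1043 at 24 h. Of 6 fibroblast and mural markers, RGS5 alone reached 1 CPM, as did LYZ alone of 6 leukocyte markers, and DCN, LUM and DES were at 0. The part of these marker levels in the integrin results was not tested. The mitochondrial share of counts was 4.02% and 3.95% in siELMO1 libraries 2 and 3 at 0 h and at most 2.42% in the other 16 libraries.

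The promoter windows are shown for ITGB8, ITGAV, ITGB1, ITGA5 and ITGA6, which are 5 of the 6 members that were higher in siELMO1 than in each control at each time. Each window is the 250 bases before the most upstream GENCODE v44 start, read from GRCh38 on the strand of the gene, 5′ to 3′. Whether the transcripts counted here begin at that start was not tested. Capitals mark matches to GGGCGG or its reverse complement, the letters read by SP and KLF factors, and in ITGA6 a match to the reverse complement of TATAAA. The ITGB8 window is chr7:20330452-20330701 on the plus strand with 59.6% G and C, that of ITGAV is chr2:186589760-186590009 on the plus strand with 70.8% and that of ITGB1 is chr10:33005793-33006042 on the minus strand with 59.2%. The ITGA5 window is chr12:54419267-54419516 on the minus strand with 70.0% and that of ITGA6 is chr2:172427104-172427353 on the plus strand with 51.2%.
ITGB8: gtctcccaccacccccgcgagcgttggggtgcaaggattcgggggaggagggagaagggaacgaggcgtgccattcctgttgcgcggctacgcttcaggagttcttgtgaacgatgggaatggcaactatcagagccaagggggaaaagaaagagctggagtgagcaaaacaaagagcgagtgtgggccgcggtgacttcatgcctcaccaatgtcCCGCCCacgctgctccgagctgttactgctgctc
ITGAV: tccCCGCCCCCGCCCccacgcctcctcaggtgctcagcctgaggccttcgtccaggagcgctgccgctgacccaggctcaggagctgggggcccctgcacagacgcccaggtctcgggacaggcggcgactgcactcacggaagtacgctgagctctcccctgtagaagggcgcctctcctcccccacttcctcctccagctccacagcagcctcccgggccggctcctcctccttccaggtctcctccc
ITGB1: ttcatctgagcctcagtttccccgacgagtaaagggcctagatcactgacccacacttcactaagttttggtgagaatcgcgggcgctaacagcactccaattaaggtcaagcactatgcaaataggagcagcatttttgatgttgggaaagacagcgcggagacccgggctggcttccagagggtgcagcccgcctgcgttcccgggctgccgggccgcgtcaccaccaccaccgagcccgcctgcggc
ITGA5: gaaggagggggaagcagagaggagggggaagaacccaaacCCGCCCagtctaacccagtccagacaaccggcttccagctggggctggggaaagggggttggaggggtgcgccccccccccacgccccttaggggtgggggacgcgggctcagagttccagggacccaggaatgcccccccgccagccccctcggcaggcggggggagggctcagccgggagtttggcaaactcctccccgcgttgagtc
ITGA6: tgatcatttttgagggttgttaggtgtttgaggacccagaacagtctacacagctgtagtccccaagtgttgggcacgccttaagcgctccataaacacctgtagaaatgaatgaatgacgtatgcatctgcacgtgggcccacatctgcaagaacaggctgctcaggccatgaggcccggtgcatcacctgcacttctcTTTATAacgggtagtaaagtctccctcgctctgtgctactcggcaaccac

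In 9 members, GGGCGG was found on either strand in 7 of the windows, all but those of ITGB1 and ITGA6, and in 49.0% of 20032 protein-coding genes. The AP-1 letters TGANTCA were in 0 of the 9 and in 5.46% of all, and the cAMP response letters TGACGTCA in 0 of the 9 and in 1.89% of all. TATAAA was in the window of ITGA6 alone, against 10.0% of all. Matches to different motifs did not overlap. A match describes letters and is no evidence of a bound factor. A window without a match says nothing of other starts of the same gene.

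Levels of different genes were compared per length, as transcripts per 1000000 (TPM). These were computed from the counts and length of each transcript and summed per gene. At 0 h in Mock, ITGB1 stood at 534 ± 8.78 TPM (mean ± SD, n = 3) and ITGA5 at 499 ± 2.42, the subunits of the fibronectin receptor. ITGA3 at 206 ± 4.97 and ITGA6 at 196 ± 3.26 followed, then ITGB5 at 125 ± 4.57. ITGA2 at 99.9 ± 4.85 and ITGAV at 93.9 ± 2.18 differed by little more than their SDs and are not ordered, and ITGB3 was at 72.0 ± 1.36. ITGB4 at 13.1 ± 0.948 and ITGB8 at 6.37 ± 0.282 were the least abundant. In the other 5 conditions ITGA5 led ITGB1. At 0 h in siELMO1, ITGB8 reached 17.6 ± 1.24 TPM beside 18.8 ± 1.73 for ITGB4, a gap within their spread. At 24 h ITGB4 stood at 2.68 ± 0.468 TPM in Mock, 3.50 ± 0.407 in siNT and 7.00 ± 3.27 in siELMO1, below the mean of ITGB8 in each, with a gap in siNT smaller than the SDs and libraries that overlapped in Mock.

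**Figure D1:**
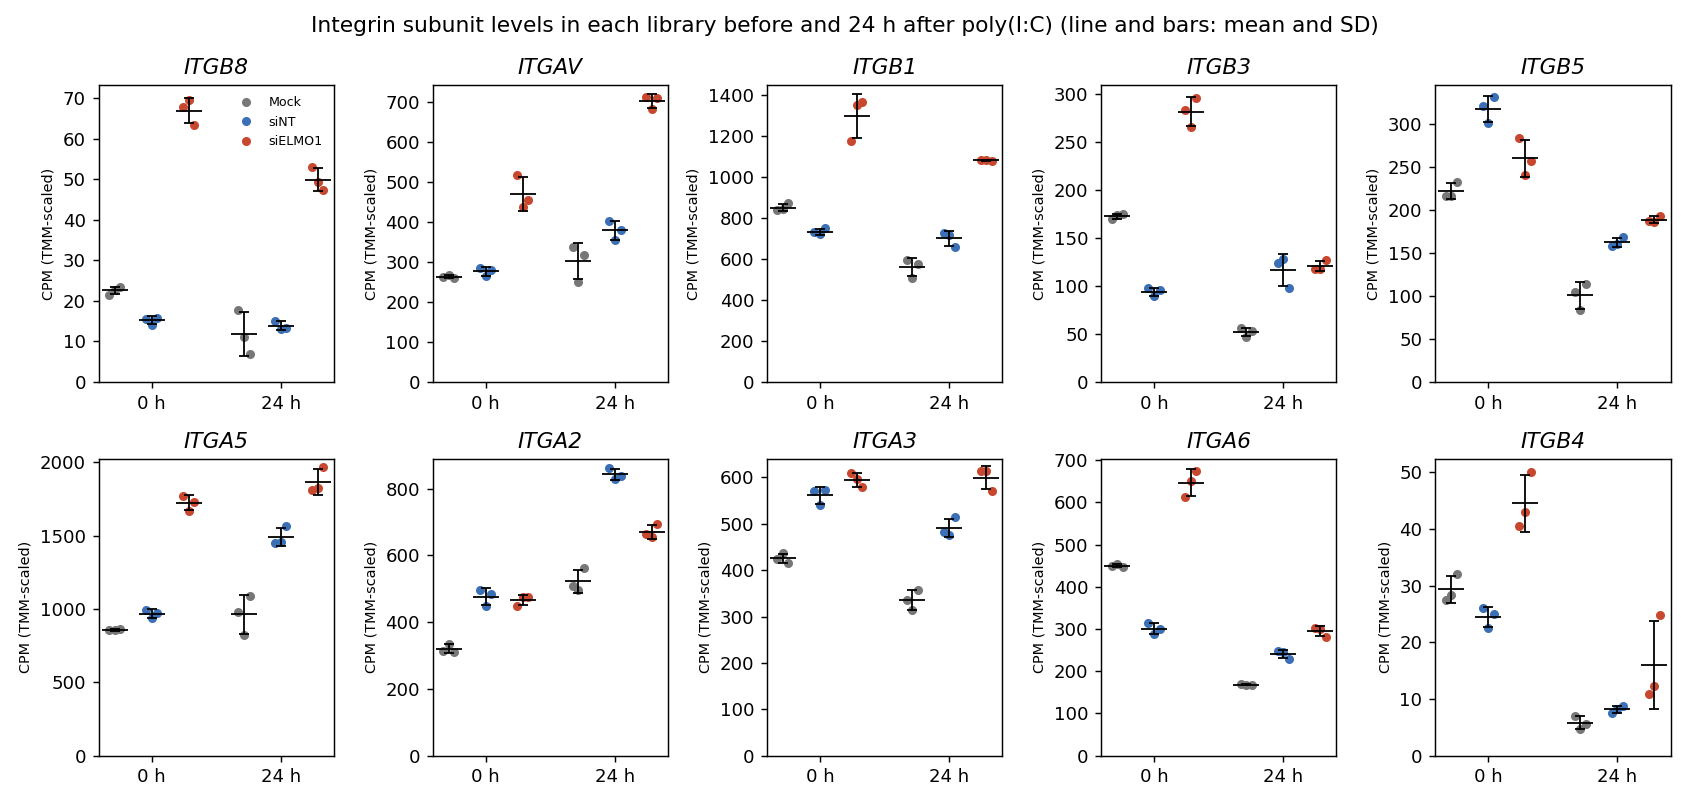
Level of each of the 10 integrin subunit genes (y axes, CPM scaled by TMM factors, each axis from 0) in each of the 18 libraries at 0 h and 24 h, with Mock in grey, siNT in blue and siELMO1 in red. Points are libraries and the line with bars is the mean with the SD of 3 libraries. At 0 h the siELMO1 libraries of ITGB8 sit between 63.4 and 69.5 CPM, above all 6 control libraries.

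The first question was how the integrin subunits stood in ELMO1-depleted cells against each control before poly(I:C). Against Mock at 0 h, all 10 members were higher by edgeR's quasi-likelihood test with Benjamini-Hochberg adjustment over all genes (10 of 10 at adjusted p below 0.05, with 27.9% of all tested genes called higher and 22.4% lower). The median log2 fold change of the 10 was 0.60 against 0.04 over all genes. Against siNT at 0 h, 7 members were higher, ITGB5 was lower, and ITGA2 and ITGA3 did not pass the test (all genes: 31.3% higher and 31.3% lower), with a median of 0.83 against 0.00 over all genes. The 7 members ITGB8, ITGAV, ITGB3, ITGB1, ITGA5, ITGA6 and ITGB4 were higher in both comparisons, as were 18.0% of all genes. These comparisons share the siELMO1 libraries. For 8 of the 10 members, all but ITGB5 and ITGA2, the lowest siELMO1 library exceeded the highest of the 6 control libraries, which held for 20.1% of all genes.

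At 24 h of poly(I:C), all 10 members were higher in siELMO1 than in Mock (all genes: 21.6% higher and 22.0% lower), with a median log2 fold change of 0.95 against -0.01 over all genes. Against siNT, 8 were higher, ITGA2 was lower and ITGB3 did not pass (all genes: 26.0% higher and 26.5% lower), with a median of 0.31 against -0.01. The 8 members higher in both comparisons at 24 h were ITGB8, ITGAV, ITGB5, ITGB1, ITGA5, ITGA3, ITGA6 and ITGB4, against 12.2% of all genes. At this time 8 members, all but ITGB3 and ITGA2, had each siELMO1 library above each control library, against 15.1% of all genes. The 6 members ITGB8, ITGAV, ITGB1, ITGA5, ITGA6 and ITGB4 were called higher in all 4 comparisons, against 8.25% of all genes, and no member was called lower in both comparisons at either time.

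**Figure D2:**
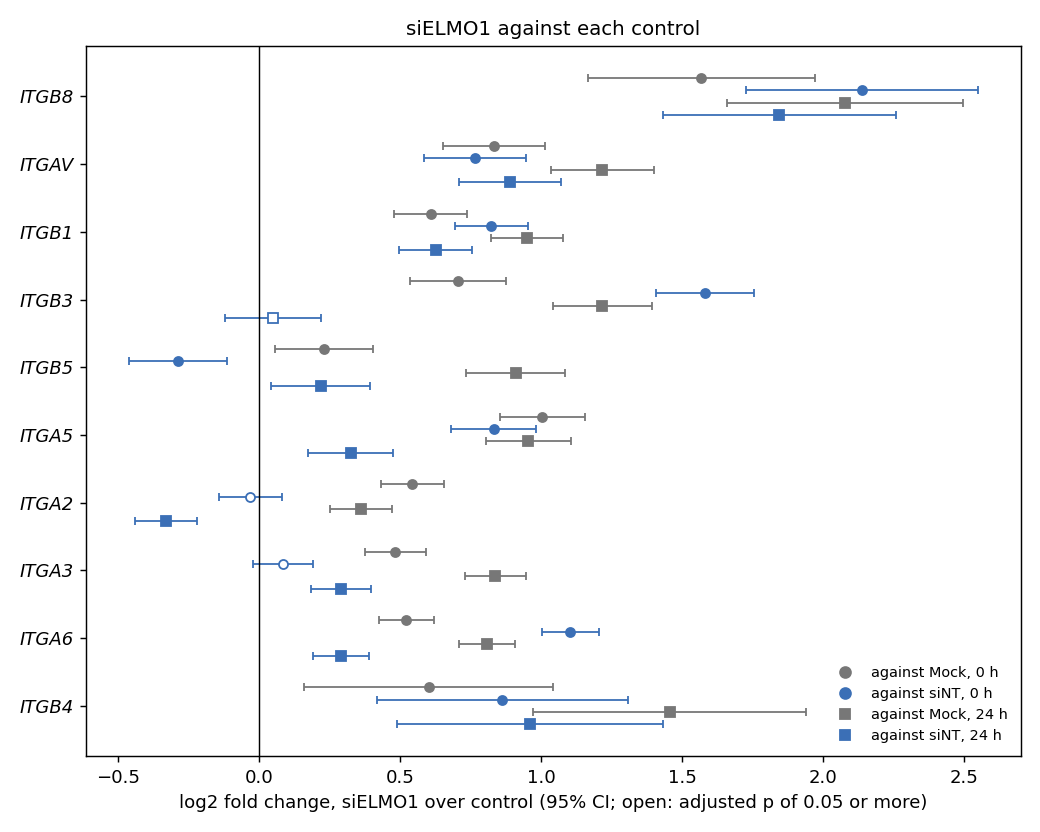
Log2 fold change of each integrin subunit gene in siELMO1 over Mock (grey) and over siNT (blue) at 0 h (circles) and 24 h (squares), with 95% confidence intervals from the quasi-likelihood fit and open symbols where the adjusted p was 0.05 or more. All 4 values of ITGB8 lie between 1.57 and 2.14, and those of ITGA2 and ITGB5 fall on both sides of 0.

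The controls themselves differed. In siNT against Mock at 0 h, ITGA2 (0.57), ITGB5 (0.52) and ITGA3 (0.40) were higher on the log2 scale, and ITGB3 (-0.87), ITGA6 (-0.58), ITGB8 (-0.57) and ITGB1 (-0.21) were lower. That made 3 higher and 4 lower, where 27.6% of all genes were higher and 24.0% lower, and ITGAV, ITGA5 and ITGB4 did not pass the test. At 24 h, 8 members were higher in siNT than in Mock and 0 were lower (all genes: 25.2% and 24.9%), with ITGB3 at 1.17 ± 0.08, adjusted p = 5.9e-09 and ITGA2 at 0.69 ± 0.05, adjusted p = 1.4e-08. ITGB4 (0.49 ± 0.23) and ITGB8 (0.23 ± 0.20) did not pass at 24 h. The value of ITGB8 rested on the Mock libraries: without Mock library 1 it was 0.62 (adjusted p = 0.0015) and without Mock library 3 it was -0.05. That of ITGAV was 0.33 ± 0.09, and 0.21 without Mock library 2. An excess of siELMO1 over a single control therefore carries the difference between the controls, and the values against each are given side by side below.

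ITGB8 (ENSG00000105855.10, chr7:20330702-20415754, plus strand) encodes the β8 chain, which pairs with αv. At 0 h its level was 21.6, 22.8 and 23.3 CPM in the Mock libraries, 15.6, 14.1 and 15.9 in siNT and 67.9, 69.5 and 63.4 in siELMO1. At 24 h it was 17.7, 11.1 and 6.82 in Mock, 15.1, 13.1 and 13.4 in siNT and 52.9, 49.2 and 47.3 in siELMO1. The siELMO1 libraries did not overlap with either control at either time, and the 3 Mock libraries at 24 h were spread more widely than any other group of this gene. In siELMO1 ITGB8 was 2.97-fold the Mock level at 0 h (log2 1.57 ± 0.19, adjusted p = 2.1e-06) and 4.40-fold the siNT level (2.14 ± 0.20, adjusted p = 3.2e-08). After poly(I:C) it was 4.22-fold Mock (2.08 ± 0.20, adjusted p = 1.9e-07) and 3.59-fold siNT (1.84 ± 0.20, adjusted p = 5.2e-07). The counts behind ITGB8 ran from 398 in Mock library 3 at 24 h to 4988 in siELMO1 library 1 at 0 h. The count of 398 went with a split among transcripts unlike that of the other libraries, described with the shares below. The antisense RNA ITGB8-AS1, which overlaps the gene on the other strand, had 0.971% of the counts of ITGB8. The lower level in siNT than in Mock at 0 h (-0.57 ± 0.19, adjusted p = 0.019) was not called without siNT library 2 (-0.52, adjusted p = 0.067).

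ITGAV (ENSG00000138448.13, chr2:186590010-186680901, plus strand) encodes αv, the partner shared by β8, β3, β5 and β1. Its level at 0 h was 262, 268 and 261 CPM in Mock, 286, 264 and 279 in siNT and 517, 437 and 454 in siELMO1. After 24 h of poly(I:C) the libraries read 338, 250.4 and 318 in Mock, 402, 355 and 379.7 in siNT and 713, 682 and 711 in siELMO1. Every siELMO1 library was above every control library of its time, and at 0 h Mock and siNT overlapped. Against Mock the log2 difference was 0.83 ± 0.09, adjusted p = 2.8e-07 at 0 h and 1.22 ± 0.09, adjusted p = 5.9e-09 at 24 h, and against siNT it was 0.76 ± 0.09, adjusted p = 4.4e-07 and 0.89 ± 0.09, adjusted p = 1.6e-07. At 0 h siNT differed from Mock by 0.07 ± 0.09 (95% CI -0.11 to 0.25, adjusted p = 0.53).

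ITGB3 (ENSG00000259207.10, chr17:47253827-47313743, plus strand) encodes β3, the chain of the vitronectin receptor αvβ3. At 0 h the libraries held 169.7, 173 and 174 CPM in Mock, 97.5, 89.4 and 95.2 in siNT and 283, 265 and 296 in siELMO1. At 24 h they held 55.9, 47.1 and 52.5 in Mock, 124, 128 and 97.7 in siNT and 117, 118 and 126 in siELMO1. The 3 groups were apart from one another at 0 h, whereas at 24 h siNT and siELMO1 overlapped and Mock lay below both. ITGB3 was 1.63-fold Mock and 2.99-fold siNT in siELMO1 at 0 h (log2 0.71 ± 0.08, adjusted p = 1e-06 and 1.58 ± 0.08, adjusted p = 1.9e-11). At 24 h the difference from Mock was 1.22 ± 0.08, adjusted p = 4e-09, and that from siNT was 0.05 ± 0.08 with a 95% CI of -0.12 to 0.22 (adjusted p = 0.64).

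ITGB5 (ENSG00000082781.12, chr3:124761948-124901418, minus strand) encodes β5, the chain of a second vitronectin receptor, αvβ5. Its levels at 0 h were 217, 217 and 233 CPM in Mock, 321, 302 and 332 in siNT and 284, 241 and 258 in siELMO1. Its levels at 24 h were 105, 83.7 and 113 in Mock, 159, 160.2 and 169 in siNT and 187, 186 and 194 in siELMO1. At 0 h siELMO1 lay between the controls, above Mock and below siNT, and at 24 h it lay above both. Against Mock at 0 h the difference was 0.23 ± 0.08, adjusted p = 0.028. That call was lost under scaling by library totals (0.15, adjusted p = 0.17) and without any 1 of the 3 Mock libraries or siELMO1 library 1 (adjusted p from 0.056 to 0.14). The same call was lost with no filter but a total of 1 count (adjusted p = 0.14) and with the compared libraries alone (adjusted p = 0.054). Against siNT the difference was -0.29 ± 0.08, adjusted p = 0.0056. At 24 h the difference from Mock was 0.91 ± 0.08, adjusted p = 1.3e-07, while the call against siNT (0.22 ± 0.08, adjusted p = 0.036) was lost without siNT library 1 or 2 or any 1 siELMO1 library (adjusted p from 0.059 to 0.099). The call against siNT was also lost with library totals (0.17, adjusted p = 0.12) and with no filter but a total of 1 count (adjusted p = 0.062).

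The makeup of the αv partners was described per length as shares of summed TPM. Over the 4 members whose chains pair with αv, ITGB1, which also serves other alpha chains, took from 66.7% ± 1.25 (SD, n = 3) in siNT at 0 h to 80.4% ± 1.64 in Mock at 24 h. ITGB8 took 0.863% ± 0.0282 in Mock, 0.652% ± 0.0381 in siNT and 1.68% ± 0.155 in siELMO1 at 0 h, and 1.04% ± 0.184, 0.663% ± 0.049 and 1.63% ± 0.114 at 24 h. The shares that follow are of ITGB3, ITGB5 and ITGB8 alone, which pair with αv and, but for β3 in platelets, with no other alpha chain, with no test since 3 libraries a group cannot pass 0.05 in a permutation test. The share of ITGB8 at 0 h was 3.13% ± 0.0702 in Mock, 1.96% ± 0.0554 in siNT and 6.56% ± 0.611 in siELMO1. At 24 h it was 5.28% ± 0.514, 2.71% ± 0.231 and 8.17% ± 0.61, and the groups did not overlap at either time. With the length of the transcript with the most counts, the Mock libraries at 24 h ran from 2.16% to 5.62% with a mean of 4.06% and overlapped with siNT at 2.48% to 2.89%. In Mock library 3 at 24 h the deposited estimates gave 0% of the per-length level of ITGB8 to its coding transcript of 8974 bases. A shorter transcript of 3420 bases, also coding, took 85.5%, whereas the longer one took at least 86.0% in each of the other 17 libraries. Mock library 3 at 24 h had the lowest CPM of ITGB8 (6.82) but 4.64 TPM, so the Mock share at 24 h depends on how the per-length level was computed. The count of that library also enters each fold change of ITGB8 with Mock at 24 h. In TPM, ITGB8 at 24 h was at 4.13 ± 0.974 in Mock, 3.65 ± 0.31 in siNT and 13.3 ± 0.782 in siELMO1. Over the alternatives and with 1 library left out, siELMO1 against Mock at 24 h ran from 1.80 to 2.47 on the log2 scale. The part of the transcript split in these fold changes was not tested. The share of ITGB3 at 0 h was 35.4% ± 0.641 in Mock, 17.5% ± 0.37 in siNT and 41.4% ± 1.70 in siELMO1, and at 24 h it was 26.2% ± 1.59, 33.7% ± 3.88 and 29.5% ± 0.464. ITGB5 made up the remainder and had the largest share of these 3 genes in every condition, from 52.0% ± 1.67 in siELMO1 to 80.5% ± 0.407 in siNT at 0 h. As ratios of TPM to ITGAV, ITGB8 was at 0.0677 ± 0.00206 in Mock, 0.0448 ± 0.0011 in siNT and 0.111 ± 0.0135 in siELMO1 at 0 h. At 24 h the ratios were 0.0414 ± 0.00327, 0.029 ± 0.000915 and 0.0562 ± 0.0032, lower than at 0 h in each transfection and highest in siELMO1 at each time.

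**Figure D3:**
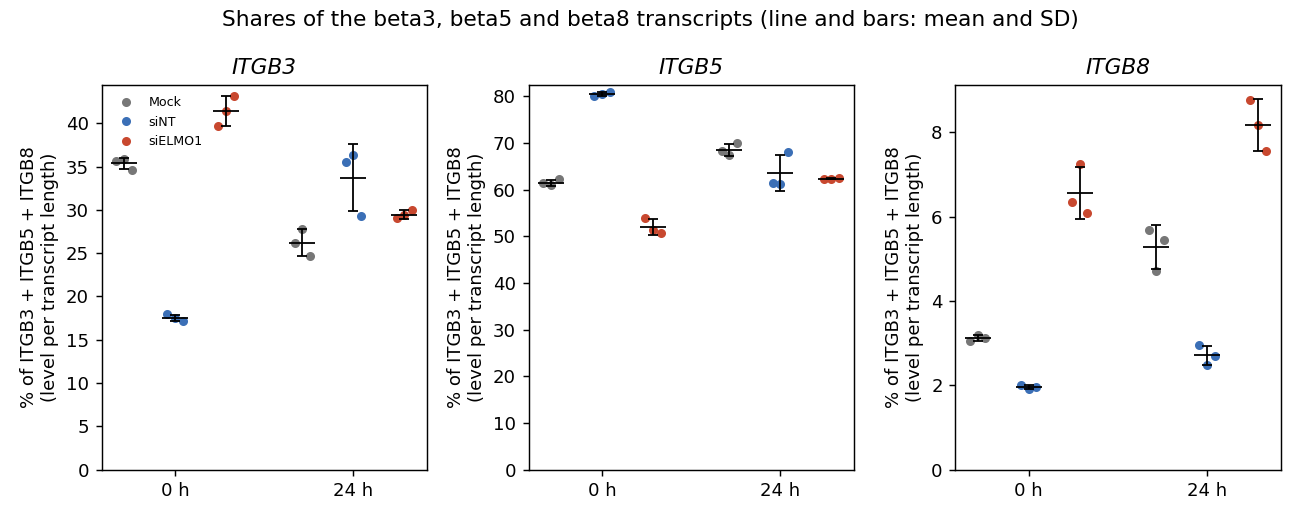
Share of ITGB3, ITGB5 and ITGB8 in their summed level per transcript length (y axes, percent, each from 0) in each library of Mock (grey), siNT (blue) and siELMO1 (red) at 0 h and 24 h. Points are libraries and the line with bars is the mean with the SD. ITGB8 is highest in siELMO1 at both times, 6.56% ± 0.611 at 0 h and 8.17% ± 0.61 at 24 h.

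ITGB1 (ENSG00000150093.20, chr10:32887273-33005792, minus strand) encodes β1, the beta chain that most alpha chains share. At 0 h its level was 837, 842 and 869.9 CPM in Mock, 729.8, 719 and 748 in siNT and 1172, 1348 and 1365 in siELMO1. At 24 h it was 593, 508 and 575 in Mock, 725, 714 and 659 in siNT and 1079, 1082 and 1076 in siELMO1. The siELMO1 libraries were the highest at each time without overlap. The log2 differences were 0.61 ± 0.06, adjusted p = 2e-07 from Mock and 0.82 ± 0.06, adjusted p = 2.1e-09 from siNT at 0 h, and 0.95 ± 0.06, adjusted p = 2.2e-09 and 0.63 ± 0.06, adjusted p = 1.9e-07 at 24 h. Counts given to the pseudogene ITGB1P1 came to between 6.30% and 7.36% of those of ITGB1 in each library, and whether reads were shared between these copies was not tested.

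ITGA5 (ENSG00000161638.11, chr12:54395261-54419266, minus strand) encodes α5, which with β1 makes the classical fibronectin receptor. Its levels at 0 h were 859, 853 and 866 CPM in Mock, 993, 937 and 974 in siNT and 1772, 1669 and 1727 in siELMO1. At 24 h they were 981, 821 and 1089 in Mock, 1449, 1457 and 1564 in siNT and 1808, 1824 and 1967 in siELMO1. The siELMO1 libraries were above both controls at each time, and the gap to siNT was narrower at 24 h. Against Mock the difference was 1.00 ± 0.07, adjusted p = 2.4e-09 at 0 h and 0.95 ± 0.07, adjusted p = 1.2e-08 at 24 h. Against siNT it was 0.83 ± 0.07, adjusted p = 1.4e-08 and 0.32 ± 0.07, adjusted p = 0.00095.

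ITGA2 (ENSG00000164171.11, chr5:52989340-53094779, plus strand) encodes α2, the collagen-binding partner of β1. At 0 h its level was 314, 335 and 310.5 CPM in Mock, 495, 448 and 485 in siNT and 449, 474 and 474 in siELMO1. With poly(I:C) for 24 h the values were 508, 496 and 562 in Mock, 862, 829 and 839 in siNT and 662, 655 and 694 in siELMO1. At 0 h siELMO1 overlapped with siNT and both exceeded Mock, and at 24 h siELMO1 lay between Mock and siNT. The difference from Mock was 0.54 ± 0.05, adjusted p = 1.4e-07 at 0 h and 0.36 ± 0.05, adjusted p = 2.5e-05 at 24 h. That from siNT was -0.03 ± 0.05 at 0 h (95% CI -0.14 to 0.08, adjusted p = 0.62) and -0.33 ± 0.05, adjusted p = 4.9e-05 at 24 h.

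ITGA3 (ENSG00000005884.18, chr17:50055968-50090481, plus strand) encodes α3, which with β1 binds laminin. At 0 h it was at 423, 436 and 416 CPM in Mock, 571, 539.9 and 572 in siNT and 609, 595 and 579 in siELMO1. The 24 h libraries gave 336, 314 and 357 in Mock, 482, 476 and 514 in siNT and 614, 615 and 571 in siELMO1. Mock was the lowest group at each time, and siELMO1 was the highest with a small margin over siNT at 0 h. The difference from Mock was 0.48 ± 0.05, adjusted p = 3.7e-07 at 0 h and 0.84 ± 0.05, adjusted p = 1.1e-09 at 24 h. From siNT it was 0.08 ± 0.05 at 0 h (95% CI -0.02 to 0.19, adjusted p = 0.16) and 0.29 ± 0.05, adjusted p = 0.00013 at 24 h.

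ITGA6 (ENSG00000091409.16, chr2:172427354-172506459, plus strand) encodes α6, which pairs with β1 or β4 to bind laminin. At 0 h the libraries held 449, 454 and 447 CPM in Mock, 314, 289 and 299 in siNT and 613, 651 and 675 in siELMO1. At 24 h they held 169.8, 167 and 168 in Mock, 247, 246 and 230.1 in siNT and 303, 299 and 281 in siELMO1. The groups were apart at each time, with siNT below Mock at 0 h and above it at 24 h, and siELMO1 above both. The difference from siNT was 1.10 ± 0.05, adjusted p = 1.4e-12 at 0 h and 0.29 ± 0.05, adjusted p = 5.8e-05 at 24 h, and that from Mock was 0.52 ± 0.05, adjusted p = 4.8e-08 and 0.81 ± 0.05, adjusted p = 7.3e-10. ITGA6 has 2 alternative C-terminal ends. Shares were taken per length of its transcripts with an annotated stop codon alone. Those with the stop codon of ITGA6-201 took from 51.9% to 83.1% over the 18 libraries. The group means of that share ran from 60.1% ± 7.71 in siNT at 0 h to 72.2% ± 8.24 in siELMO1 at 24 h, a difference of the size of the spread within groups.

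ITGB4 (ENSG00000132470.14, chr17:75721328-75757818, plus strand) encodes β4, the partner of α6 in hemidesmosomes. At 0 h its level was 27.6, 28.4 and 32.1 CPM in Mock, 26.0, 22.6 and 24.9 in siNT and 40.5, 43.0 and 50.2 in siELMO1. At 24 h it was 7.09, 4.74 and 5.64 in Mock, 7.59, 8.17 and 8.75 in siNT and 10.8, 12.3 and 24.9 in siELMO1. The siELMO1 libraries were above the controls at each time, and at 24 h library 3 stood far above libraries 1 and 2. The difference from Mock at 0 h was 0.60 ± 0.21, adjusted p = 0.023, a call lost without Mock library 1 (0.53, adjusted p = 0.091), without Mock library 2 (0.55, adjusted p = 0.082) or without siELMO1 library 3 (0.51, adjusted p = 0.088). From siNT at 0 h it was 0.86 ± 0.21, adjusted p = 0.0017. The difference at 24 h was 1.46 ± 0.23, adjusted p = 5.5e-05 from Mock and 0.96 ± 0.22, adjusted p = 0.0016 from siNT, the latter 0.50 (adjusted p = 0.0055) without siELMO1 library 3. GALK1 lies over ITGB4 on the other strand with 93.0% of its counts in total, but the annotated exons of the pair share 0 bases, and GALK1 was at -0.09 ± 0.09 against Mock (adjusted p = 0.44) and -0.06 ± 0.09 against siNT (adjusted p = 0.6) at 0 h. Whether strand was used in counting is not given in the sources used here.

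The next question was how the members stood at 24 h of poly(I:C) against 0 h in each transfection, a contrast that also holds 24 h more in culture. In Mock cells 7 members fell, ITGB4 (-2.34), ITGB3 (-1.73), ITGA6 (-1.42), ITGB5 (-1.14), ITGB8 (-0.93), ITGB1 (-0.60) and ITGA3 (-0.34), on the log2 scale of 24 h over 0 h. ITGA2, the collagen receptor chain, rose by 0.71 ± 0.05, adjusted p = 2.6e-09, so 1 of 10 was higher and 7 lower where 30.7% of all genes were higher and 29.6% lower. The median of the members was -0.77 against 0.01 over all genes. ITGAV (0.20 ± 0.09, adjusted p = 0.055) and ITGA5 (0.17 ± 0.07, adjusted p = 0.054) did not pass, but both were called higher without Mock library 2 at 24 h (0.32 with adjusted p = 0.00072, and 0.27 with adjusted p = 0.00041). Scaling by library totals shifted every value of this comparison by 0.12 downwards.

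In siNT cells ITGA2 (0.82), ITGA5 (0.62), ITGAV (0.45) and ITGB3 (0.31) rose and ITGB4 (-1.58), ITGB5 (-0.97), ITGA6 (-0.32) and ITGA3 (-0.19) fell, which is 4 in each direction where 28.6% of all genes were higher and 25.2% lower. ITGB1 (-0.07 ± 0.06) and ITGB8 (-0.13 ± 0.20) did not pass. The median of the members was -0.10 against 0.01 over all genes. In siELMO1 cells ITGAV (0.58) and ITGA2 (0.53) rose and ITGB4 (-1.48), ITGB3 (-1.22), ITGA6 (-1.13), ITGB5 (-0.46) and ITGB1 (-0.26) fell, 2 higher and 5 lower (all genes: 28.0% and 26.9%). The median there was -0.34 against 0.00 over all genes. ITGB8 (-0.43 ± 0.19, adjusted p = 0.061), ITGA5 (0.12 ± 0.07) and ITGA3 (0.01 ± 0.05) did not pass in siELMO1 cells. ITGB8 was called lower there with limma-voom (-0.42, adjusted p = 0.0072), library totals (-0.49, adjusted p = 0.035), upper-quartile factors (-0.48, adjusted p = 0.034), a replicate block (-0.43, adjusted p = 0.045) and the compared libraries alone (-0.42, adjusted p = 0.0011). ITGA2 was called higher and ITGB4, ITGB5 and ITGA6 lower in each of the 3 transfections, as were 14.4% and 11.6% of all genes.

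**Figure D4:**
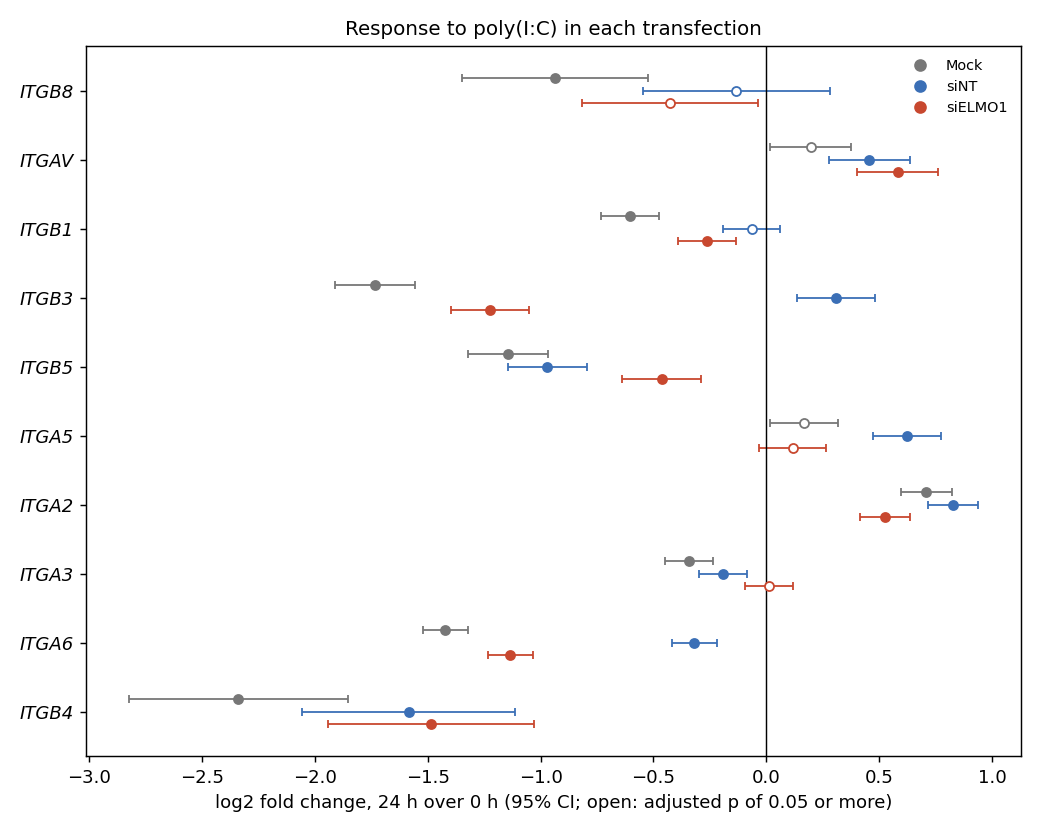
Log2 fold change of each integrin subunit gene between 24 h of poly(I:C) and 0 h in Mock (grey), siNT (blue) and siELMO1 (red) cells, with 95% confidence intervals and open symbols where the adjusted p was 0.05 or more. ITGB3 stands at -1.73 in Mock, 0.31 in siNT and -1.22 in siELMO1.

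Differences between these responses were tested as interaction terms in the same fit. The response of 7 members was higher, or less negative, in siELMO1 than in Mock and that of 0 was lower (all genes: 13.8% higher and 14.6% lower). They were ITGB4 (0.85), ITGB5 (0.68), ITGB3 (0.51), ITGAV (0.38), ITGA3 (0.35), ITGB1 (0.34) and ITGA6 (0.29). The call of ITGB4 (adjusted p = 0.047) was lost without siELMO1 library 3 at 24 h, where the value was 0.39 (adjusted p = 0.11), and without most other single libraries. It was also lost with DESeq2 (adjusted p = 0.061), limma-voom (0.079), other filters (0.054 and 0.056) and the compared libraries alone (0.091). The call of ITGAV (adjusted p = 0.024) was lost without siELMO1 library 2 or 3 at 0 h (adjusted p = 0.065 and 0.055). ITGB8 did not pass (0.51 ± 0.27, adjusted p = 0.17), and without Mock library 1 at 24 h its value was 0.93 (adjusted p = 0.00095).

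Between siELMO1 and siNT, the response of ITGB5 (0.51) and ITGA3 (0.21) was higher and that of ITGB3 (-1.53), ITGA6 (-0.81), ITGA5 (-0.51) and ITGA2 (-0.30) lower in siELMO1, 2 higher and 4 lower where 16.7% and 17.8% of all genes were. The call of ITGA3 (adjusted p = 0.034) was lost without any of 8 single libraries, among them siELMO1 libraries 1 and 2 at 24 h (adjusted p = 0.078 and 0.075). It was also lost with library totals (adjusted p = 0.081) and with no filter but a total of 1 count (adjusted p = 0.054). Between siNT and Mock the response of 5 members was higher in siNT and that of 0 lower (all genes: 15.0% and 16.0%). These were ITGB3 (2.04 ± 0.12, adjusted p = 2.5e-09), ITGA6 (1.10 ± 0.07, adjusted p = 4.5e-09), ITGB8 (0.80 ± 0.28, adjusted p = 0.035), ITGB1 (0.54) and ITGA5 (0.46). The value of ITGB8 was 1.23 without Mock library 1 at 24 h and 0.52 without Mock library 3, and its call was lost without any of 7 other single libraries (adjusted p from 0.051 to 0.078). The comparisons of responses share libraries in pairs, so their values are set side by side and not counted as separate support.

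The other genes of integrin adhesion were taken from lists of ligands, partners and adaptors and are given as counts, to be read beside the shares of all tested genes. Those were 27.9% higher and 22.4% lower against Mock and 31.3% and 31.3% against siNT at 0 h, 21.6% and 22.0% against Mock and 26.0% and 26.5% against siNT at 24 h, and 8.25% higher and 6.47% lower in all 4. The medians over all genes were 0.04, 0.00, -0.01 and -0.01 in these 4 comparisons. Of 16 further integrin subunits, 7 had enough counts to be tested and 9 did not, among them ITGA2B, ITGA8 and the leukocyte chains ITGAL, ITGAM and ITGB2. ITGA4, a fibronectin and VCAM-1 receptor chain, and ITGA10, a collagen receptor chain, were higher in all 4 siELMO1 comparisons and ITGAX, a leukocyte chain, was lower in all 4. ITGA4 was at 117 ± 3.92 CPM in siELMO1, 78.2 ± 0.582 in Mock and 77.6 ± 2.57 in siNT at 0 h. The median of the 7 was -0.16 against Mock and -0.08 against siNT at 0 h, and 0.60 and 0.38 at 24 h. ITGB6, the other beta chain known for freeing TGF-β, was at 0.417 to 1.42 CPM before scaling.

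Of 29 matrix ligands, 23 were tested. Against Mock at 0 h 14 were higher, 2 lower and 7 not called, with a median log2 fold change of 0.60, and against siNT 15 were higher, 5 lower and 3 not called, with a median of 0.65. At 24 h 17 were higher and 3 lower against Mock, with a median of 0.87, and 16 higher and 3 lower against siNT, with a median of 0.76. In all 4 comparisons 13 were higher and 0 lower: FN1, LAMA3, LAMA4, LAMB1, LAMB2, LAMC1, COL4A1, COL4A2, COL5A1, COL5A2, COL6A1, FBN1 and THBS1. That is 13 of 23 beside 8.25% of all genes. The study had named COL5A1, COL5A2, COL4A1 and THBS1 on the same libraries, so their direction is not independent evidence. COL5A1, a chain of fibrillar collagen V, stood at 2.88 ± 0.26, adjusted p = 6.3e-08 against Mock and 3.66 ± 0.27, adjusted p = 2.3e-09 against siNT at 0 h. THBS1, a matricellular protein that binds αvβ3, stood at 1.76 ± 0.12, adjusted p = 1.2e-09 and 2.03 ± 0.12, adjusted p = 1e-10, and COL4A1, a basement membrane collagen, at 1.53 ± 0.14, adjusted p = 5.5e-08 and 2.15 ± 0.14, adjusted p = 4.6e-10.

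All 9 genes on a list of TGF-β isoforms, tethers of latent TGF-β and related matrix proteins were tested. Against Mock at 0 h 7 were higher and 1 lower, with a median of 0.79, and against siNT 5 were higher and 2 lower, with a median of 0.21. At 24 h 6 were higher and 0 lower against Mock and 5 higher and 1 lower against siNT, with medians of 0.84 and 0.33. TGFB1, LTBP1, LTBP2, LTBP3 and LRRC32 were higher in all 4, beside 8.25% of all genes. LTBP1, which stores latent TGF-β in the matrix, was at 40.1, 37.3 and 43.9 CPM in Mock, 16.4, 12.3 and 20.0 in siNT and 84.9, 88.8 and 100.4 in siELMO1 at 0 h. LRRC32, a tether of latent TGF-β at the cell surface, was at 1.22, 0.838 and 1.54, 0.314, 0.51 and 0.838 and 1.93, 2.84 and 2.00 CPM in the same order. LTBP2, a related matrix protein, differed by 0.84 ± 0.08 from Mock and 0.68 ± 0.08 from siNT at 0 h.

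All 30 adhesion adaptors, the proteins that bind integrin tails or pass on their signal, were tested. At 0 h 15 were higher and 7 lower against Mock and 14 higher and 11 lower against siNT, with medians of 0.17 and 0.08, where 27.9% and 22.4%, and 31.3% and 31.3%, of all genes were. At 24 h 13 were higher and 6 lower against Mock, but 7 higher and 16 lower against siNT, with medians of 0.03 and -0.20, where 21.6% and 22.0%, and 26.0% and 26.5%, of all genes were. In all 4 comparisons 6 were higher (TLN1, LIMS1, PARVA, PTK2, FYN and TNS3) and 3 lower (FERMT1, PARVB and ACTN4). FERMT1, the kindlin of epithelial cells, was at -0.80 ± 0.06, adjusted p = 2.1e-09 against Mock and -0.62 ± 0.06, adjusted p = 3.3e-08 against siNT at 0 h. PTK2, the focal adhesion kinase, was at 0.60 ± 0.04 and 0.96 ± 0.04, and LIMS1, a partner of integrin-linked kinase, at 0.85 ± 0.07 and 0.29 ± 0.07. Of 6 genes on a list of regulators of integrin activity, KANK2 was higher in all 4 (0.67 ± 0.05 against Mock at 0 h) and DOK1 lower in all 4 (-0.25 ± 0.09). Of 9 partners of laminin receptors and tetraspanins, CD9 was higher in all 4 (0.45 ± 0.05 against Mock and 0.68 ± 0.05 against siNT at 0 h) and no gene was lower in all 4.

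Genes whose pattern was most like that of a member were found by Pearson's r of log2(CPM + 0.5) over the 18 libraries, among 13612 genes. These values are a description without a p, since the libraries fall into clusters by condition. For ITGB8 they were DNAH8 (r = 0.976), KCTD20 (0.965) and GALNT1 (0.963), and the closest member was ITGB1 (0.949). For ITGB3 they were ENTPD4 (0.970), XYLT1 (0.965) and SEPTIN9 (0.961), with ITGA6 (0.952) the closest member. For ITGB4 they were CNTNAP3B (0.978), EML1 (0.973) and MAP3K3 (0.972), with ITGA6 (0.914) again the closest member. ITGA2 ran apart from these 3 members, at -0.11 with ITGB8, -0.28 with ITGB3 and -0.58 with ITGB4.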

How the data were processed

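Bulk RNA from 18 samples of EA.hy926 cells, 3 in each of 6 conditions, was sequenced with a stranded kit. The authors aligned reads to GRCh38 with STAR and deposited estimated counts per gene and per transcript made with StringTie and its count script on GENCODE v44 (the submitters' processing notes name STAR, StringTie and limma). These values are whole numbers and were not normalized.

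Of 62754 genes, the 15167 that summed to 100 counts or more over the libraries and reached 1 CPM in any library were kept. Counts were fitted over all 18 libraries with edgeR 4.0.16 in R 4.3.3 (TMM factors, glmQLFit and glmQLFTest, two-sided, Benjamini-Hochberg adjustment over all genes), with condition means and no block, and called at adjusted p below 0.05. Errors of log2 fold changes are standard errors from this fit and those of levels are SDs. The common biological coefficient of variation was 12.2%. Library totals of 40374756 to 73850946 put the level of 3 counts at 0.0406 to 0.0743 CPM, which covers counting error only. DESeq2 1.42.0, limma-voom (limma 3.58.1), other scalings and filters, a replicate block and leaving out each library were alternatives. The script was tested on simulated data. No libraries held identical counts.

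TPM and shares were computed from the deposited estimated counts per transcript, each divided by the length of its transcript and summed per gene. The alternative shares used the gene counts and the length of the transcript with the most counts. Promoter windows came from GRCh38 with GENCODE v44, and that of 1 member is not reported here. Named genes were the 10 members, ELMO1, the 3 genes of each list with a mean of at least 1 CPM and the largest mean change among those called in 1 direction in all 4 siELMO1 comparisons, and for ITGB8, ITGB3 and ITGB4 the 3 genes of highest correlation. Other genes named beside counts, and GALK1 and ITGB1P1, were chosen after their values were seen. The members and lists were chosen with earlier results of these data known.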

Additional observations from a re-analysis of the deposited data

Results flagged for a closer look

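The response of several integrin subunit genes to poly(I:C) differed between transfections by the interaction term of edgeR's quasi-likelihood fit, with Benjamini-Hochberg adjustment over all genes. Each value is a difference of log2 fold changes. Between siELMO1 and Mock it was positive for ITGAV (0.38), ITGB1 (0.34), ITGB3 (0.51), ITGB5 (0.68), ITGA3 (0.35), ITGA6 (0.29) and ITGB4 (0.85). Between siELMO1 and siNT it was ITGB3 (-1.53), ITGB5 (0.51), ITGA5 (-0.51), ITGA2 (-0.30), ITGA3 (0.21) and ITGA6 (-0.81). Between siNT and Mock it was ITGB8 (0.80), ITGB1 (0.54), ITGB3 (2.04), ITGA5 (0.46) and ITGA6 (1.10). The calls of ITGB4 and ITGAV in the first, ITGA3 in the second and ITGB8 in the third were lost in some settings given above. The pairs of comparisons share libraries. ITGB3 moved in opposite directions, with 0.31 in siNT against -1.73 in Mock and -1.22 in siELMO1. Each of its 3 siNT libraries at 24 h was above the highest siNT library at 0 h, but the lowest of them only just (97.7 against 97.5 CPM). Groups of 3 libraries were too small to test for single outlying libraries.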

How the results depend on the processing

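Counts of members called moved by less than 1.5 times under every alternative run. Of 1080 values under the alternatives to the fit (DESeq2, limma-voom, other scalings, other filters, the compared libraries alone and a replicate block), 1042 kept their direction and their side of the threshold, 13 lost and 21 gained the call, and 4 changed sign. Of 900 values with 1 library left out, 844 kept both, 38 lost and 11 gained the call, and 7 changed sign. None of the values that changed sign was called, and the cause was not tested. With library totals ITGA3 in the siELMO1 response was -0.0497 and ITGA5 in siELMO1 minus Mock was 0.0094, and with upper-quartile factors ITGA3 was -0.0464. With limma-voom ITGB4 in siELMO1 minus siNT was -0.0324. With 1 library left out, ITGB3 against siNT at 24 h ran from -0.0624 to 0.121, ITGB8 in siNT against Mock at 24 h from -0.0467 to 0.619, ITGA3 in the siELMO1 response from -0.0061 to 0.0474, ITGA5 in siELMO1 minus Mock from -0.152 to 0.0472 and ITGB4 in siELMO1 minus siNT from -0.361 to 0.319. With the length of the transcript with the most counts, the share of ITGB8 was 1.90% in siNT at 0 h and 4.06% in Mock at 24 h. Pairing of samples by replicate number was not seen in the 9 pairs of conditions compared directly, though 3 libraries a condition cannot exclude it. Over 11033 genes the correlations of same-numbered libraries did not all exceed 0.1 in any of these pairs. Between Mock and siNT at 0 h, for example, they were -0.01, 0.10 and -0.02. Of the 6 other pairs of conditions, siELMO1 at 0 h and siNT at 24 h, which meet only in a difference of responses, had 0.15, 0.13 and 0.14. A replicate block gave 10 members called against Mock in siELMO1 at 0 h, as without it, and 10 in place of 8 in the Mock response, 8 in place of 7 in siNT against Mock at 0 h, 8 in place of 7 in the siELMO1 response and 7 in place of 5 in siNT minus Mock. The counts of the other 7 comparisons were the same with the block. With 1 library left out the count ran from 8 to 10 for siELMO1 against Mock at 0 h and from 4 to 7 for siNT minus Mock. The lowest count of a member in any library was 286, for ITGB4, and the spread of ITGB4 in siELMO1 at 24 h came from 713, 792 and 1246 counts.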
